A study of Mus musculus with 9 samples.

Results

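The comparison was between exosomes of macrophages kept with silica for 48 h and exosomes of untreated macrophages, described across mature miRNAs, their 5p and 3p arms, their seed families and the other small RNA classes. The members were the 3 libraries labelled silica 48 h and the 3 labelled untreated, 6 of the 9 libraries of the series. The cells were RAW264.7, a mouse macrophage line, grown in medium with fetal bovine serum, and all groups came from this 1 line. Vesicles were collected by ultracentrifugation and their RNA was sequenced as small RNA libraries. The untreated cells received no silica and the treated cells received it for 48 h. The sources used here give neither the silica dose nor how long the untreated cells were cultured. The serum in the medium carries vesicles and RNA of its own, and these were not separated from those of the cells. In the 6 libraries 1061 mature miRNAs were listed, 412 of them in all 6, out of 1101 in the whole series.

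Exosomes are small vesicles that form inside endosomes and are released when these fuse with the cell surface. They carry mature miRNAs, which guide Argonaute proteins to mRNAs through the seed near the 5′ end, and fragments of other RNAs. Silica is the mineral dust that causes silicosis. Macrophages of the lung take up the particles, respond with inflammatory signals and are thought to pass signals on to fibroblasts.

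The miRNAs on which the comparison turned are shown with their RefSeq sequences (GRCm38.p6, 5′ to 3′, seed in capitals). They had the lowest p, separate groups, the largest smallest difference of one sign between libraries of the same number, or the highest levels. Of the 1101 listed names, 937 had a sequence there.
miR-378d: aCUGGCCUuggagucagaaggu
miR-872-5p: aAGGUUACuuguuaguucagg
miR-5114: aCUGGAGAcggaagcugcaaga
miR-330-3p: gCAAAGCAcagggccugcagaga
miR-702-5p: gUGAGUGGggugguuggcaug
miR-1198-5p: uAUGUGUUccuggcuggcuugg
miR-10a-5p: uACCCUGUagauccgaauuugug
miR-99a-5p: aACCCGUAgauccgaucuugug
miR-423-3p: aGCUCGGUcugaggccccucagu
let-7d-3p: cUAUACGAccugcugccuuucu
let-7c-5p: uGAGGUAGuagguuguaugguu
miR-23a-3p: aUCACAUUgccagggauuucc
miR-24-3p: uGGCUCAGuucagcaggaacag
miR-27a-3p: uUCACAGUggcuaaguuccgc
miR-27b-3p: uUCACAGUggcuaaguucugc
The 2 members of the miR-27 pair share their seed, while miR-10a-5p and miR-99a-5p, of related families, do not.

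In the same build, miR-378d lies at chr10:126710355-126710376 on the minus strand, between annotated genes. The position of miR-872-5p is chr4:94665167-94665187, plus strand, in an intron of Ift74. That of miR-5114 is chr19:44303171-44303192, plus strand, in exonic sequence of Scd2. The gene of miR-330-3p overlaps exonic sequence of Eml2 at chr7:19181525-19181547, plus strand, and that of miR-702-5p an intron of Plod3 at chr5:136991442-136991462, plus strand. An intron of Gripap1 on chromosome X holds miR-1198-5p (chrX:7807142-7807163, plus strand). miR-10a-5p lies between genes at chr11:96317186-96317208, plus strand, and miR-423-3p in an intron of Nsrp1 at chr11:77078086-77078108, minus strand.

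Mature miRNA gave 4173825 to 8331451 counts per library, 35.1% to 44.7% of all counted reads. Levels of single miRNAs are given as CPM, TMM-scaled counts relative to the mature miRNA total of the library. A count of 3 in a library was worth 0.314 to 0.867 CPM in the 48 h group and 0.512 to 0.681 CPM in the untreated group. The untreated library 2 and the 48 h library 2 stood apart from the other 4. They were the most alike of the 15 pairs (r = 0.969 across the tested miRNAs, which are not independent replicates), and the lowest r, 0.872, was between the untreated libraries 1 and 2. The median size of the log2 difference between the libraries numbered 2 was 0.39, between those numbered 3 it was 0.55 and between those numbered 1 it was 0.80. Between libraries of 1 group it was 0.74 to 1.35, so a typical miRNA varied more within the groups than between the groups at the numbers 2 and 3. For many results that rest on the libraries numbered 2, values without them are given as well.

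**Figure D1:**
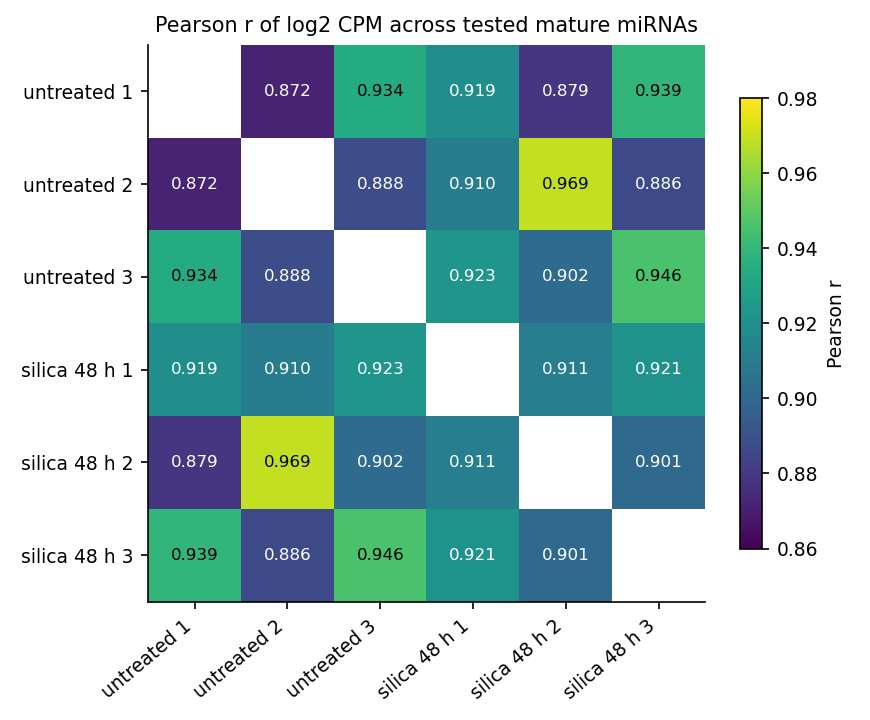
Pearson r of log2 CPM across the tested mature miRNAs for each pair of the 6 libraries (rows and columns, colour and number both give r). The pair numbered 2 has the highest r, 0.969, and the untreated libraries 1 and 2 the lowest, 0.872.

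The comparison of 48 h of silica with no silica asked which small RNAs of the vesicles differ after the exposure. The mature miRNA with the lowest p was miR-378d, at 5.53 to 11.1 CPM at 48 h and 15.1 to 2081 CPM in untreated. After it came miR-382-5p and miR-375-3p, scarce miRNAs with higher values at 48 h, and miR-5114, with lower ones. Abundant miRNAs with low p were miR-328-3p, at 2.02 times its untreated level, and miR-872-5p, at 0.518 times. None of these passed the test.

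The quasi-likelihood test of edgeR, with p-values adjusted by Benjamini-Hochberg, called 0 of the 453 miRNAs tested (0%), and the lowest adjusted p was 0.997. Without adjustment 4 had a p under 0.05, 2 of them higher and 2 lower at 48 h. With DESeq2 1 miRNA was called, miR-378d, and with limma-voom 0. Over all tested miRNAs 238 had a higher and 215 a lower fitted value at 48 h, the median log2 fold change was 0.03 and its median size was 0.37. The median SE was 0.82, and for 60 miRNAs the log2 fold change was beyond 1 in either direction. The 95% interval of the fold change lay within 2-fold in both directions for 8 miRNAs, or 1.77% of those tested. For the other tested miRNAs a difference of 2-fold was not shown to be absent. The p-values measure the spread between these libraries, which the design text calls independent repetitions without saying whether they were separate cultures.

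**Figure D2:**
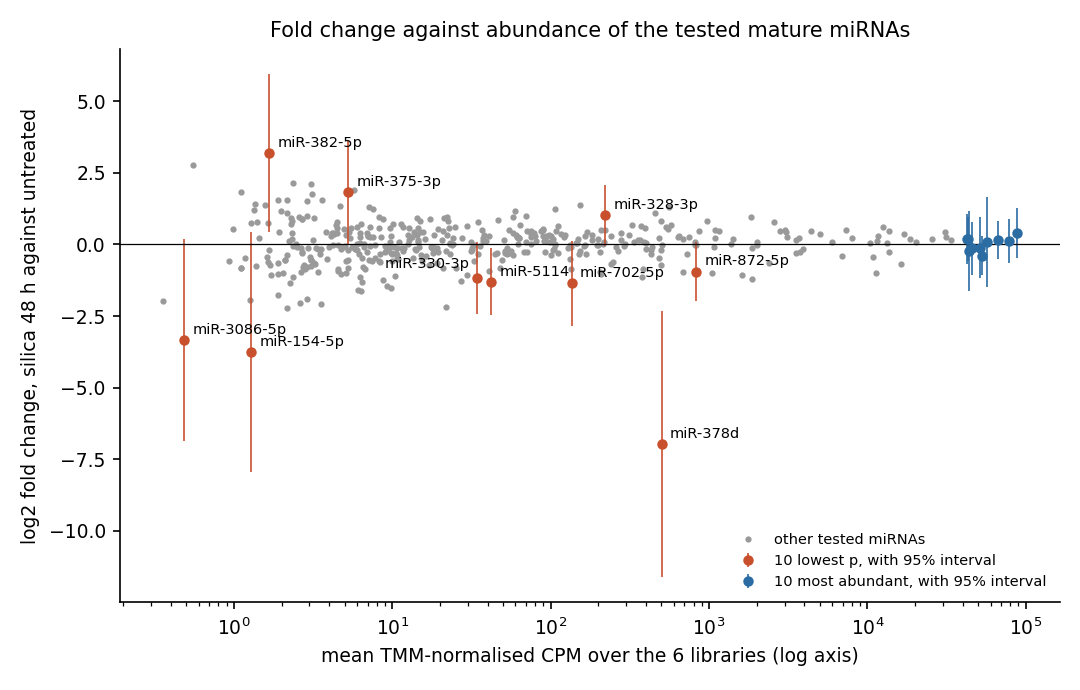
Log2 fold change at 48 h against untreated (y axis) by mean CPM over the 6 libraries (x axis, log) for the 453 tested mature miRNAs. The 10 miRNAs with the lowest p (red) and the 10 most abundant (blue) have 95% intervals, and miR-378d has the lowest value, -6.98.

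The groups were separate, with all libraries of one above all of the other, for 17 miRNAs, or 3.75% of those tested. Of these, 10 were higher and 7 lower at 48 h. Those of at least 10 CPM are plotted by library. At 100 CPM or more there were 5: miR-378d and miR-872-5p, lower, and miR-10a-5p, miR-328-3p and miR-423-3p, higher.

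**Figure D3:**
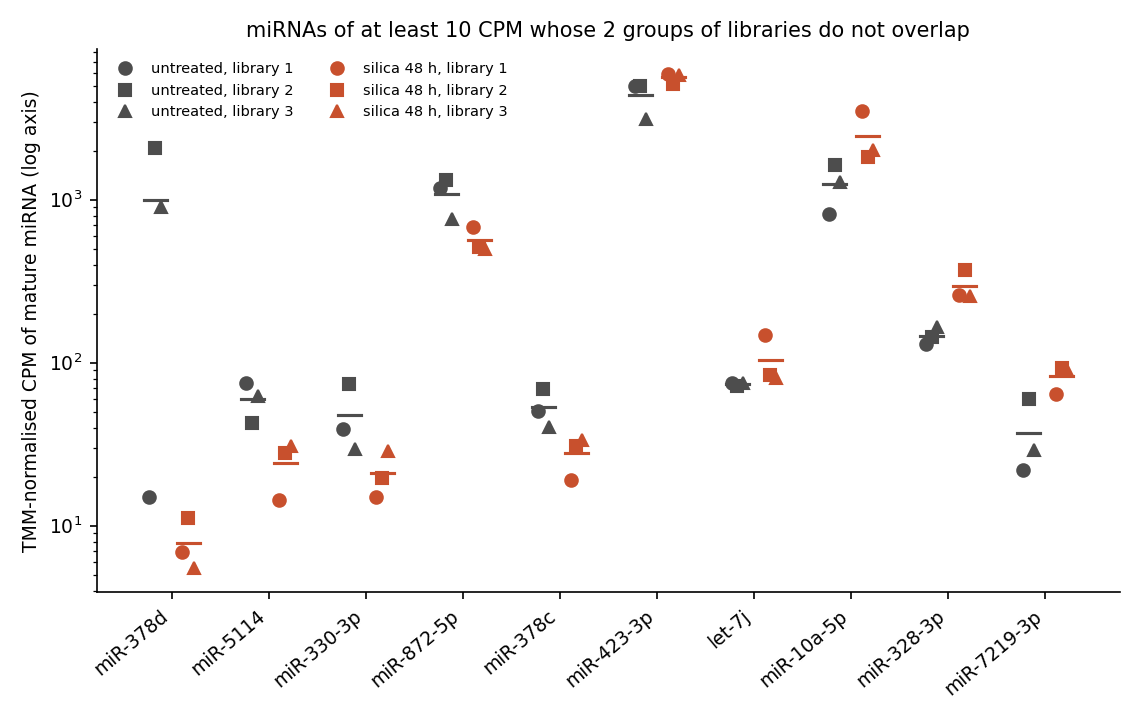
CPM (log axis) of the 10 miRNAs of at least 10 CPM whose untreated (grey) and 48 h (red) libraries did not overlap. Symbols give the library number and bars the group means; the 3 untreated values of miR-378d spread from 15.1 to 2081.

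The miR-378 family takes its main member, miR-378a, from an intron of Ppargc1b, a regulator of mitochondrial metabolism. For miR-378d the untreated libraries held 15.1, 2081 and 900.0 CPM, and the 48 h libraries 6.94, 11.1 and 5.53 CPM. All 48 h values lay below the lowest untreated one, but the untreated library 1 was much nearer to the 48 h group than to the other untreated libraries. In reads this was 81, 12185 and 3963 counts against 24, 106 and 24. The log2 fold change was -6.98 ± 2.12 (SE), with a 95% interval of -11.6 to -2.34 (edgeR adjusted p = 0.997). It was -6.20 without both libraries numbered 2 and -5.84 without the untreated library 2. Under DESeq2 the adjusted p was 0.000902, and without a filter on low counts the edgeR adjusted p was 1.69e-13.

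The whole family of 5 tested members had lower values at 48 h, with a median log2 fold change of -0.87 against 0.03 over all tested miRNAs. The median was -0.44 without the untreated library 2. The groups were separate for 2 members, miR-378d and miR-378c, where 3.75% of all tested miRNAs had separate groups, and 0 members passed the test. The abundant member, miR-378a-3p, held 19199, 31888 and 9200.1 CPM in untreated and 10343, 17955 and 9412 CPM at 48 h. Its groups overlapped, with the untreated library 3 below every 48 h library (log2 fold change -0.68 ± 0.47, SE). Without the untreated library 2, its highest value, the log2 fold change was -0.15, and without the untreated library 3 it was -1.07. miR-378c stood at 50.8, 68.8 and 40.2 CPM in untreated and 19.1, 30.9 and 33.6 CPM at 48 h. miR-378b stood at 455, 744 and 292 CPM against 254, 297 and 263, where only 1 of the 48 h values exceeded the lowest untreated one. For miR-378a-5p, from the other arm of the miR-378a hairpin, the log2 fold change was -0.12. The 378 members are near-identical over much of their length and the sources used here do not say how reads that match several of them were assigned, so the values of single members, miR-378d above all, are uncertain.

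Among the other miRNAs with lower values, miR-872-5p held 1175, 1329 and 765 CPM in untreated and 683, 513 and 496 CPM at 48 h. Every 48 h library lay below every untreated one, and the log2 fold change was -0.95 ± 0.47 (SE; 95% interval -1.98 to 0.08, edgeR adjusted p = 0.997). miR-5114 held 74.9, 42.9 and 62.9 CPM in untreated and 14.5, 28.0 and 30.6 CPM at 48 h, again without overlap. Its log2 fold change was -1.30 ± 0.53 (SE) and its interval, -2.47 to -0.14, left out 0. miR-330-3p held 39.3, 74.5 and 29.8 CPM against 15.0, 19.6 and 28.8 CPM. Its groups were separate by the narrow gap between the untreated library 3 and the 48 h library 3 (log2 fold change -1.18 ± 0.57, SE, and -0.69 without the untreated library 2).

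For miR-702-5p, which lies in Plod3, a gene of collagen processing, the untreated libraries held 267, 246 and 73.6 CPM and the 48 h libraries 30.1, 125 and 73.97 CPM. The groups overlapped through the untreated library 3 (log2 fold change -1.35 ± 0.68, SE). miR-1198-5p, the most abundant of the miRNAs named for lower values, held 24064, 5641 and 15267 CPM in untreated and 9450, 3068 and 10088 CPM at 48 h. Each 48 h library was below the untreated library of its number, while the groups overlapped (log2 fold change -0.99 ± 0.64, SE; 95% interval -2.40 to 0.41), and the value was -0.54 without the untreated library 1. Both libraries numbered 2 were the lowest of their groups.

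Of the scarce miRNAs, miR-3086-5p had 14 counts in untreated, 11 of them in library 1, and 1 count at 48 h. miR-154-5p, of the imprinted Dlk1-Dio3 locus on chromosome 12, had 18, 2 and 15 counts in untreated and 2, 0 and 0 at 48 h. At these depths 1 library decided the value: without the untreated library 1 the log2 fold change of miR-3086-5p went from -3.34 to -1.87.

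On the higher side, miR-328-3p held 131, 144 and 165 CPM in untreated and 260, 370 and 257 CPM at 48 h. All 48 h libraries lay above all untreated ones and the values within each group were close. The log2 fold change was 1.01 ± 0.49 (SE), with a 95% interval of -0.06 to 2.09 (edgeR adjusted p = 0.997), and over the 19 alternative settings it stayed between 0.80 and 1.15. miR-10a-5p, encoded in the Hoxb cluster, held 817, 1631 and 1291 CPM in untreated and 3484, 1823 and 2025 CPM at 48 h. The groups were separate, with the 48 h library 1 highest and the libraries numbered 2 the closest (log2 fold change 0.97 ± 0.54, SE). Without both libraries numbered 2 its log2 fold change was 1.38, and without the untreated library 1 it was 0.63.

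miR-7219-3p held 22.0, 59.9 and 29.1 CPM in untreated and 64.4, 92.3 and 90.8 CPM at 48 h. All 48 h libraries were above the untreated ones, by little at the untreated library 2 (log2 fold change 1.16 ± 0.64, SE; 95% interval -0.24 to 2.56). This miRNA was put on the list of fibrosis-linked miRNAs with earlier work on silica exosomes known, so its direction is not independent evidence. miR-423-3p held 4965, 5010.5 and 3130 CPM in untreated and 5908, 5161 and 5845 CPM at 48 h. Its groups were separate by the gap between the 2 libraries numbered 2, and its log2 fold change was 0.37 ± 0.39 (SE), or 0.099 without the untreated library 3. The scarce miR-382-5p, also of the Dlk1-Dio3 locus, had 0, 4 and 1 counts in untreated and 12, 8 and 21 at 48 h. miR-375-3p, known from pancreatic islets and epithelia, had 10, 16 and 10 counts in untreated and 31, 30 and 55 at 48 h (log2 fold change 1.83 ± 0.83, SE; 95% interval 0.02 to 3.65).

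None of the 10 most abundant miRNAs had separate groups. The 10 most abundant of each library, which were not the same in all, took 54.7% to 61.4% of mature counts in untreated and 55.4% to 61.9% at 48 h. By mean CPM over the 6 libraries the first was let-7c-5p, of the let-7 family that restrains growth. It held 98607, 46520 and 83564 CPM in untreated and 145774, 54555 and 100069 CPM at 48 h. Both libraries numbered 2 were low, and the log2 fold change was 0.39 ± 0.40 (SE). It was 0.052 without the 48 h library 1, 0.16 without the untreated library 2 and 0.68 without the 48 h library 2. miR-99a-5p stood at 75253 ± 18802 CPM in untreated and 81296 ± 16303 at 48 h (SD, n = 3), and miR-23a-3p at 63036 ± 19371 and 70755 ± 8592. Their 95% intervals of the log2 fold change, -0.65 to 0.88 and -0.50 to 0.84, lay within 2-fold. miR-222-3p, which targets cell cycle inhibitors, was within it as well, at 40426 ± 11958 and 46599 ± 9458 CPM (interval -0.56 to 0.97).

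The neighbours of miR-23a-3p varied more. miR-24-3p held 121185, 21399 and 24143 CPM in untreated and 116215, 18912 and 40698 CPM at 48 h, so library 1 was the highest in both groups. Its fitted log2 fold change of 0.08 changed sign under 2 of the scalings tried. miR-27a-3p held 46671, 62174 and 71639 CPM against 40519, 49298 and 47618 CPM (log2 fold change -0.39 ± 0.31, SE), and the groups overlapped through the untreated library 1. miR-27b-3p stood at 48205 ± 23632 and 43981 ± 15597 CPM (SD, n = 3). miR-7a-5p, 1 hairpin of which lies in an intron of Hnrnpk, held 78027, 12808 and 50272 CPM in untreated and 67843, 13604 and 39017 CPM at 48 h, lowest in the libraries numbered 2. Among the 11 tested members of the miR-23/27/24 clusters 6 were higher and 5 lower, with a median of 0.08 that turned to -0.02 with DESeq2-type factors and to -0.04 with total counts alone.

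The miRNAs that inflammation induces in macrophages included 13 tested members, 8 higher and 5 lower at 48 h, with 0 called and a median log2 fold change of 0.17. Without the 48 h library 2 this median was -0.098, and without the untreated library 2 it was 0.022. miR-146a-5p, a brake on Toll-like receptor signalling, held 71185, 19539 and 70627 CPM in untreated and 65124, 26669 and 57787 CPM at 48 h. Both libraries numbered 2 were low and the groups overlapped (log2 fold change -0.11 ± 0.49, SE). miR-155-5p, an inducer of inflammatory responses, held 773, 724 and 904 CPM against 879, 1034 and 610 CPM. miR-21a-5p, abundant in activated myeloid cells, stood at 39615 ± 13141 CPM in untreated and 45381 ± 20728 at 48 h (SD, n = 3). The highest fold of the list was that of miR-125a-5p, with 282, 268 and 325 CPM in untreated and 904, 224 and 740 CPM at 48 h, where the 48 h library 2 lay below the untreated libraries (log2 fold change 1.10). The level of miR-125b-5p, of the same seed family, was likewise lower in the 48 h library 2 than in the other 48 h libraries, with 3542, 1753 and 4442 CPM against 1661, 2605 and 1428 in untreated.

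Of 9 tested macrophage and myeloid markers, 5 were higher and 4 lower at 48 h, with 0 called and a median of 0.07. Without the 48 h library 2 this median was -0.42, and without the untreated library 2 it was 0.36. Leaving out both libraries numbered 2 gave -0.17. The granulocyte and monocyte miRNA miR-223-3p held 113, 153 and 54.0 CPM in untreated and 119, 152 and 44.7 CPM at 48 h, nearly the same number by number. The leukocyte miRNA miR-142a-3p held 29.8, 187 and 43.4 CPM against 49.997, 241 and 38.0 CPM, with both libraries numbered 2 the highest. The macrophage miR-511 arms were at or below 0.854 CPM in all 6 libraries.

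The let-7 guide strands had 10 of 11 tested members higher at 48 h, with 0 called and a median of 0.29 that fell to 0.00026 without the 48 h library 1. Only let-7j had separate groups, at 75.0, 72.2 and 74.7 CPM in untreated and 149, 84.4 and 80.4 CPM at 48 h. Its value came mainly from the 48 h library 1, in which let-7a-5p and let-7f-5p were also highest, at 22887 and 12297 CPM. let-7i-5p held 29616, 28909 and 36869 CPM in untreated and 48162, 27530 and 30735 CPM at 48 h. The passenger strands let-7d-3p and let-7f-1-3p were higher at 48 h in each same-numbered pair. let-7d-3p held 206, 169 and 582 CPM in untreated and 296, 348 and 1748 CPM at 48 h, and its log2 fold change of 1.32 went to -0.01 without the 48 h library 3.

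In the families tied to the cell cycle, some members were far higher in both libraries numbered 2 than in the other libraries, and others were not. In the miR-17~92 family and its paralogs, which promote cell cycle entry, 6 of 9 tested members were higher and 3 lower, with a median of 0.03 that turned to -0.03 with total counts alone. The median was -1.21 without the 48 h library 2, -0.39 without the untreated library 1, -0.24 without the untreated library 3 and 1.42 without the untreated library 2. The number of its members with a higher value was 4 with total counts alone and 8 with upper-quartile or DESeq2-type factors. miR-92a-3p, its most abundant member, held 21966, 24249 and 25657 CPM in untreated and 21721, 24913 and 35628 CPM at 48 h, and miR-93-5p 11568, 16572 and 9521 CPM against 9578, 10233 and 8109. miR-19b-3p held 421, 5640.2 and 976 CPM in untreated and 797, 8400 and 570 CPM at 48 h, with both libraries numbered 2 far above the others. The miR-15/16 family acts as a restraint on the cell cycle, and 4 of its 6 tested members were higher, with a median of 0.17. That median was -1.20 without the 48 h library 2 and 1.18 without the untreated library 2, and it was also below 0 without the untreated library 1 (-0.23) or 3 (-0.14). miR-16-5p was split by number like miR-19b-3p, with 8543, 32765 and 10474 CPM in untreated and 10493, 41883 and 6656 CPM at 48 h, as did miR-15b-5p, with 1421, 6937 and 1697 against 3183, 6235 and 1819.

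All 5 tested 5p arms of the miR-30 family were higher at 48 h, with 0 called and a median of 0.46. For miR-30a and miR-30e the 3p arm, which is not in this list, led in all 6 libraries. miR-30d-5p held 2254, 1948 and 3278 CPM in untreated and 4260, 2467 and 3980 CPM at 48 h, an overlap through the 48 h library 2 (log2 fold change 0.52 ± 0.43, SE). miR-30b-5p held 127, 791 and 206 CPM against 286, 774 and 141 CPM. In the miR-29 family, which targets collagen mRNAs, 5 of 6 were higher and the median was 0.47. Its main member miR-29a-3p held 1588, 5929 and 3661 CPM in untreated and 3616, 8675 and 3146 CPM at 48 h, and miR-29c-3p 44.7, 353 and 116 against 122, 538 and 71.7 CPM. Without the 48 h library 2 the median was -0.067 for miR-30 and -0.81 for miR-29, and without the untreated library 2 it was 1.15 and 0.90. Without the untreated library 1 it was 0.0028 and 0.054. In the miR-181 family 3 of 4 were higher (median 0.24). miR-181a-5p held 12450, 9142 and 9855 CPM in untreated and 18260, 6871 and 13710 CPM at 48 h, and miR-181b-5p 9360, 6131 and 8019 against 8293, 3188 and 6350 CPM.

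The list of miRNAs linked to fibrosis or silicosis had 10 of 16 tested members higher and 6 lower, with 0 called and a median of 0.21. Besides miR-7219-3p, 0 of its members had separate groups. Without the 48 h library 2 the median of the list was -0.23, and without the untreated library 2 it was 0.84. miR-34a-5p, a target of p53, held 27173, 11600 and 20379 CPM in untreated and 31485, 16738 and 13923 CPM at 48 h. miR-199a-3p, a fibroblast miRNA, was listed at 9.68, 27.2 and 1526 CPM in untreated and 69.1, 583 and 63.6 CPM at 48 h. One library carried most of each group's reads, and its log2 fold change of -1.13 became 3.71 without the untreated library 3. miR-326-3p held 298, 362 and 209 CPM against 722, 214 and 418 CPM.

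Markers of other sources were measured beside these, and their part in the results was not tested. Of 6 tested serum, liver and erythroid miRNAs, 1 was higher and 5 lower at 48 h (median -0.14), and their summed level was 5453 to 7185 CPM in untreated and 2318 to 7705 CPM at 48 h. The liver miRNA miR-122-5p held 926, 255 and 1296 CPM in untreated and 956, 407 and 1087 CPM at 48 h. miR-320-3p, a plasma miRNA, held 3788, 4677 and 3859 CPM in untreated but 219, 5157 and 4970 CPM at 48 h, so that the 48 h library 1 had far less than any other. miR-423-5p held 678, 369 and 1463 CPM against 371, 855 and 1232 CPM. The red cell miRNA miR-451a, the 1 member with a higher value at 48 h, held 630, 148 and 556 CPM in untreated and 762, 786 and 409 CPM at 48 h, and miR-144-3p, from the same cluster, was at or below 1.84 CPM.

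The epithelial list had 7 of 10 higher (median 0.07). miR-183-5p held 7202, 2636 and 7635 CPM in untreated and 5883, 3576 and 8886 CPM at 48 h, miR-96-5p from the same cluster 1153, 1127 and 1808 against 1261, 1371 and 1509 CPM, and miR-205-5p was at or below 1.59 CPM. Of 8 mesenchymal and endothelial miRNAs 4 were higher (median 0.08, and -0.04 with total counts alone). The endothelial miRNA miR-126a-3p held 556, 361 and 679 CPM in untreated and 421, 385 and 577 CPM at 48 h. The list for neurons, muscle and lymphocytes had 1 of 6 tested members higher and a median of -0.50. Its muscle members, miR-1a-3p, miR-133a-3p, miR-133b-3p and miR-206-3p, were too scarce to be tested, so the median does not cover them. The median was -0.24 without the untreated library 1 and -0.26 without the untreated library 2 or 3. miR-128-3p held 351, 340 and 644 CPM against 623, 391 and 538 CPM, and miR-9-5p 119, 65.9 and 115 against 91.3, 71.2 and 87.8 CPM. In the Dlk1-Dio3 list 7 of 11 tested members were higher (median 0.25) and all were scarce. Its best counted members were miR-369-3p, with 2.79, 38.8 and 17.7 CPM in untreated and 14.5, 64.0 and 11.5 CPM at 48 h, and miR-411-5p, with 35.4, 3.93 and 28.2 against 39.9, 12.4 and 26.0 CPM.

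The medians of 13 of the 16 lists changed sign under at least 1 alternative setting. Leaving out the 48 h library 2 turned 10 of them, leaving out the untreated library 1 turned 7, and leaving out both libraries numbered 2 turned 4. The 3 medians that kept their sign throughout were those of the let-7 guide strands, the miR-378 family and the list for neurons, muscle and lymphocytes, and each of these still moved by over 1.5 times when 1 library was left out.

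The libraries numbered 2, and less so those numbered 3, resembled each other. The untreated library 1 was nearer to the 48 h library 3 than to the 48 h library 1. The median sizes of the log2 difference were 0.67 and 0.80. Each 48 h library was also set against the untreated library of its number. All 3 differences were higher at 48 h for 67 of 453 miRNAs (14.8%) and lower for 52 (11.5%). From the miRNAs of at least 10 CPM with all 3 differences of one sign, the 12 with the largest smallest difference were taken. Among these 12, miR-328-3p had log2 differences of 0.99, 1.36 and 0.64 at the numbers 1, 2 and 3. miR-7219-3p had 1.54, 0.62 and 1.63, and miR-351-5p, which shares its hairpin cluster with miR-322 on chromosome X, had 1.61, 0.50 and 1.00. On the lower side miR-872-5p had -0.78, -1.37 and -0.63, miR-1198-5p -1.35, -0.88 and -0.60, and miR-378d -1.08, -7.50 and -7.25. miR-31-5p, known from epithelial and cancer cells, held 42.3, 26.98 and 115 CPM in untreated and 19.6, 8.80 and 76.3 CPM at 48 h. miR-501-3p, from an intron of Clcn5, held 246, 438 and 201 CPM against 177, 293 and 84.1 CPM. The log2 fold change of miR-31-5p went from -0.82 to -0.054 without the untreated library 3, and that of miR-501-3p from -0.68 to -0.26 without the untreated library 2.

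**Figure D4:**
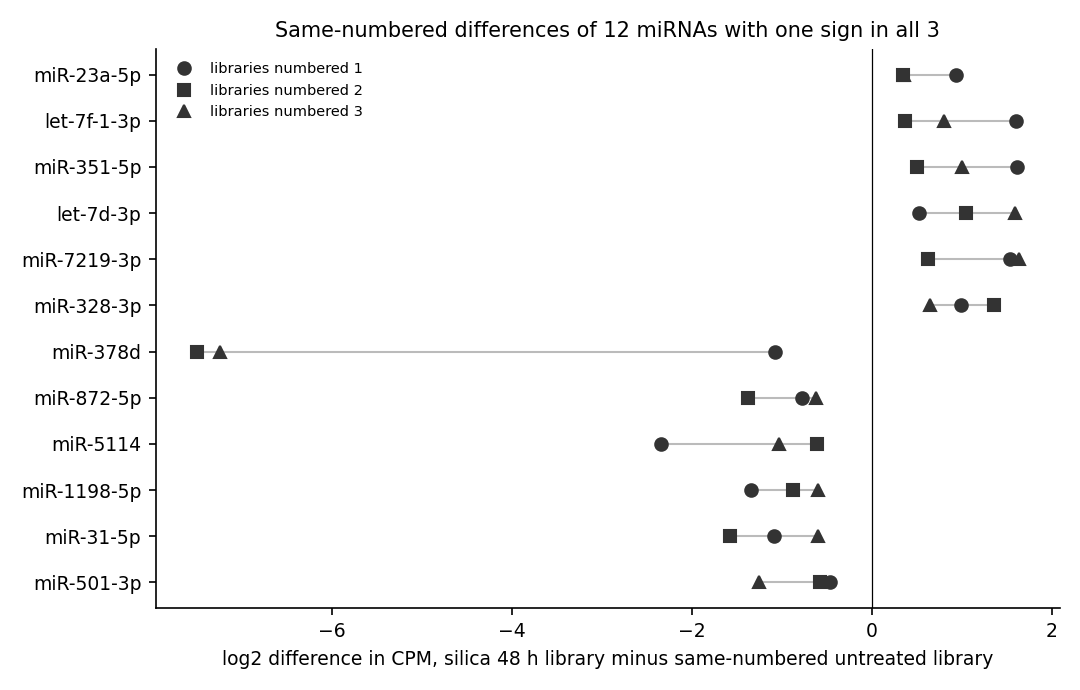
Log2 difference in CPM between each 48 h library and the untreated library of the same number (x axis) for the 6 higher and 6 lower miRNAs with the largest smallest difference, at 10 CPM or more. Symbols give the library number; the differences of miR-378d are -1.08, -7.50 and -7.25.

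Among the other miRNAs with 3 positive differences, let-7d-3p had 0.52, 1.04 and 1.59, let-7f-1-3p 1.60, 0.37 and 0.80, and miR-23a-5p, the passenger strand of miR-23a, 0.94, 0.34 and 0.36. In CPM, miR-351-5p held 30.5, 71.4 and 15.9 in untreated and 93.9, 101 and 32.3 at 48 h. Both let-7f-1-3p, at 6.33, 18.6 and 7.49 against 19.9, 24.2 and 13.4 CPM, and miR-23a-5p, at 52.9, 158 and 60.4 against 102, 201 and 77.7 CPM, had overlapping groups.

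Since a target site reads the seed, counts were also summed over miRNAs that share bases 2 to 8. The CPM of these families were scaled apart from those of single miRNAs, relative to the counts of miRNAs with a sequence. They are therefore not sums of the CPM of single miRNAs. Of 339 seed families 0 (0%) passed edgeR's test, 3 had a p under 0.05 before adjustment, and 17 (5.01%) had separate groups. With DESeq2 the seed of miR-378d alone passed, and with limma-voom 0 did. The seed shared by miR-10a-5p and miR-10b-5p held 899, 1655 and 1374 CPM in untreated and 3941, 1820 and 2259 CPM at 48 h (log2 fold change 1.03 ± 0.52, SE). The seed of miR-222-3p and miR-221-3p was separate too, at 54452, 50529 and 58808 CPM against 63942, 67676 and 69515 CPM. Its log2 fold change was 0.30 with a 95% interval of -0.31 to 0.90, and neither member alone had separate groups. The let-7 seed, with 10 members the largest share of the cargo, held 245384, 134178 and 215729 CPM in untreated and 366527, 140749 and 243536 CPM at 48 h. Its log2 fold change was 0.33 with an interval of -0.43 to 1.10. The seed of miR-702-5p and miR-3102-5p held 295, 252 and 77.4 CPM against 35.5, 129 and 82.1 CPM. The next lowest p among families belonged to seeds with 1 member, those of miR-382-5p, miR-5114 and miR-3086-5p.

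Each hairpin gives a 5p and a 3p strand, of which Argonaute keeps mainly one. Both arms passed the filter, which does not ask for reads in every library, in 104 hairpins. Of these, 46 were led by the 5p arm in all 6 libraries, 31 by the 3p arm, and 27 were led by neither arm throughout. The 27 include miR-107, which had 0 counts of both arms in the 48 h library 1 and was led by its 5p arm elsewhere. Of the 104 ratios of 5p to 3p, 0 (0%) passed in limma, and 2 had a p under 0.05 before adjustment. The groups were separate for 7 (6.73%), 4 with a higher and 3 with a lower 5p share at 48 h. For miR-1934 the 5p share was 5.26%, 12.1% and 4.88% in untreated and 26.3%, 25.0% and 14.7% at 48 h. The 5p arm rested on 5 to 21 counts in each library (difference of the log2 ratio 1.85 ± 0.66, SE; limma adjusted p = 0.995).

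miR-1839 is led by its 5p arm, with 5183 to 17074 counts in every library, and its 3p arm had 0, 42 and 0 counts in untreated and 43, 91 and 22 at 48 h. The difference of the log2 ratio was -4.14 ± 1.499 (SE; limma adjusted p = 0.995), a value that depends on the 0.5 counts added to each arm where the 3p arm was at 0. Without the untreated library 2 it was -6.14 with a limma adjusted p of 0.00550, and without both libraries numbered 2 it was -6.18 with 0.0228. The 5p share of miR-351 was 74.5%, 57.3% and 71.4% in untreated and 88.3%, 78.8% and 87.0% at 48 h, without overlap. That of miR-140 was 49.9%, 55.4% and 48.1% against 63.1%, 73.6% and 60.5%, also without overlap. The hypoxia-induced miR-210 had 5p shares of 18.0%, 3.62% and 7.15% in untreated and 1.27%, 2.35% and 4.43% at 48 h. miR-322, whose 5p arm belongs to the miR-15/16 seed family, kept 98.7%, 99.3% and 99.4% in untreated and 98.8%, 98.8% and 96.2% at 48 h.

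Short motifs are known to sort some miRNAs into vesicles: GGAG, bound by hnRNPA2B1, and GGCU, bound by SYNCRIP. They were searched as these letters on the strand of the mature miRNA, anywhere in its length, and a miRNA could hold both. Of the 937 miRNAs with a sequence, GGAG was in 136 (14.5%) and GGCU in 135 (14.4%). In the sequences shown above, GGCU is in miR-1198-5p, miR-24-3p, miR-27a-3p and miR-27b-3p, and GGAG in miR-378d and miR-5114. Tested miRNAs with GGAG had a median log2 fold change of -0.11 (55 miRNAs, 22 higher), and those without it 0.10 (347 miRNAs, 195 higher). For GGCU the medians were -0.11 (57 miRNAs, 22 higher) and 0.10 (345 miRNAs, 195 higher). The differences between these medians were not tested, nor were they recomputed with a library left out. By share of the matched mature counts, GGAG miRNAs took 2.87%, 1.75% and 2.24% in untreated and 2.01%, 0.921% and 2.28% at 48 h. GGCU miRNAs took 27.9%, 19.1% and 24.8% against 22.6%, 17.1% and 22.3%. The groups overlapped in both shares. A match describes the letters only.

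Mature miRNAs took 37.8%, 35.1% and 39.3% of counted reads in untreated and 36.5%, 44.7% and 38.3% at 48 h. The means were 37.4% ± 2.14 and 39.8% ± 4.31 (SD, n = 3; two-sided exact permutation p = 0.5, where 0.1 is the smallest that 3 against 3 can give). The higher mean at 48 h rested on library 2, without which the difference went from 2.40 to -0.03 percentage points. Per library 573, 829 and 575 mature miRNAs were listed in untreated and 621, 912 and 618 at 48 h (exact permutation p = 0.5, without pairing). Each 48 h library listed more than the untreated library of its number, by 48, 83 and 43. After thinning to 4173825 counts the means were 648 ± 136 and 685 ± 115 (SD, n = 3) and the same-numbered differences 55.6, 13.4 and 43.2. For miRNAs with at least 10 counts those differences were -70, 66 and 10. Of the 1061 miRNAs listed in the 6 libraries, 3 were in all 3 libraries of 48 h and in none of untreated. Each of these 3 had few counts, and 0 miRNAs showed the reverse.

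Among the RNA classes with at least 1% of reads, repeat sequence was 24.6%, 26.4% and 22.2% in untreated and 28.1%, 26.5% and 26.98% at 48 h, without overlap. The gap between the libraries numbered 2 was 0.159 percentage points. Intergenic reads were 5.52%, 7.47% and 5.37% in untreated and 3.96%, 4.38% and 5.28% at 48 h, again without overlap. Each gave an exact permutation p of 0.1, the smallest possible, and 0.45 adjusted over the 9 classes. Intronic reads stood at 11.97% ± 1.61 and 9.84% ± 1.06, and exonic reads at 7.71% ± 0.221 and 6.71% ± 0.687 (SD, n = 3; exact permutation p = 0.2 for each, 0.45 adjusted). Exon, intron and intergenic reads together took 24.0%, 28.7% and 24.7% in untreated and 19.5%, 19.9% and 23.8% at 48 h. Ribosomal fragments stood at 5.98%, 3.73% and 5.62% against 5.83%, 3.05% and 3.11%, and miRNA precursor families at 2.99% ± 1.34 and 2.89% ± 0.606 (SD, n = 3). Other Rfam families took 1.01% ± 0.753 and 1.11% ± 0.576. Shares of one library add up to the whole, so the classes are not independent, and a share does not tell more of one class from less of another.

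**Figure D5:**
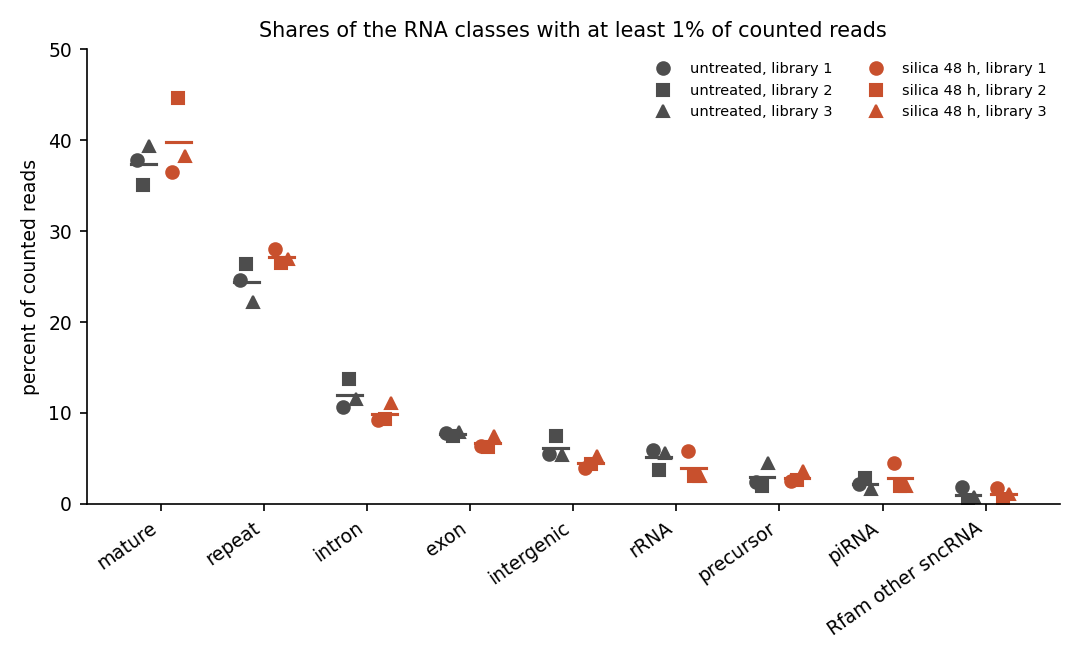
Percent of counted reads (y axis) in each RNA class with at least 1% of reads, by library (symbols give the library number, bars the group means, grey untreated, red 48 h). The repeat class lies between 26.5% and 28.1% at 48 h and between 22.2% and 26.4% in untreated.

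Reads of the piRNA class, annotated for RNAs that silence transposons in germ cells, were 2.18%, 2.80% and 1.65% in untreated and 4.50%, 1.97% and 2.01% at 48 h. One feature, mmu_piR_000935, took 2.20% of the counted reads of the 48 h library 1 and at most 0.207% of those of the others, and the rest of the class took 2.29% there against 1.57% to 2.65% in the others. It had 252121 counts in the 48 h library 1, against 4638 and 23730 in the other 48 h libraries and 23420, 20385 and 9252 in untreated.

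Of 302 known features of the classes other than mature miRNA, 0 (0%) passed edgeR's test and 6 had a p under 0.05 before adjustment, while DESeq2 and limma-voom also gave 0. The groups were separate for 7 (2.32%). The piRNA feature mmu_piR_038428 had 19, 30 and 5 counts in untreated and 65, 394 and 110 at 48 h, without overlap (log2 fold change 3.30 ± 1.23, SE). SNORA21, a small nucleolar RNA of the box H/ACA kind that guides changes of ribosomal RNA, had 209, 631 and 46 counts in untreated and 39, 82 and 42 at 48 h. Its log2 fold change of -2.56 was -0.87 without the untreated library 2. The mir-101 precursor family had 103, 532 and 87 counts in untreated and 61, 9 and 27 at 48 h, without overlap. Its log2 fold change of -2.98 was -1.36 without the untreated library 2 and -0.90 without both libraries numbered 2. The small nucleolar family RF01307 was listed with 21, 1 and 25 counts in untreated and 0 in the 48 h libraries. Among other Rfam families RF00459 had 160, 328 and 118 counts in untreated and 3807, 579 and 182 at 48 h, and its log2 fold change of 2.87 was 0.83 without the 48 h library 1. By class, 40 of 98 tested snoRNA families and 42 of 63 tested piRNA features were higher at 48 h. Over all 302 tested features 144 were higher, and the difference between the classes was not tested.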

How the data were processed

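Small RNA of exosomes from RAW264.7 cells was sequenced in 9 libraries, 3 untreated, 3 with silica for 24 h and 3 with silica for 48 h, on a BGISEQ-500 platform per the labels. Reads were trimmed with Trim Galore, aligned with Bowtie and counted with HTSeq against mm10 per the submitters' processing notes, which name these tools without versions or settings. Each library has 1 deposited table whose count column holds whole numbers of reads per small RNA, per the file headers, and sums to the total in its header. The sources used here do not say how reads with several matches were counted, which can split or duplicate the counts of near-identical miRNAs.

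From these counts, rows of the class mature were joined over libraries, with 0 where a table lists no row. Tests used R 4.3.3 with edgeR 4.0.16 (TMM, filterByExpr with a minimum count of 10, quasi-likelihood fit of the 9 libraries, 6 residual degrees of freedom, no block, contrast 48 h against untreated) and Benjamini-Hochberg adjustment at 0.05. The 24 h libraries enter the filter, the scaling and the estimate of the spread, but their levels are not compared. With the 6 libraries alone 414 mature miRNAs were tested and 0 called. The median log2 fold change of the miRNAs in both fits then shifted by -0.046. Seed families were counts summed by bases 2 to 8 of the RefSeq sequence. Arm ratios, log2 of 5p over 3p with 0.5 counts added to each, were tested with limma 3.58.1 for hairpins with both arms past the filter. Known features of the other classes were fitted together. Predicted features, listed from 10 counts, and the sums over repeats, exons, introns and intergenic sequence were left out of that fit, a choice made after the tables were seen. Single values of a library, such as a class share, went through a two-sided exact permutation test, whose smallest p is 0.1. Intervals are at 95%. The scripts were tested on simulated data.

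The miRNAs named are the 10 with the lowest p and the 10 with the highest mean CPM. Those with separate groups at 100 CPM or more were also named. So were the 6 higher and 6 lower with the largest smallest same-numbered difference, all 3 of one sign, at 10 CPM or more. From each of 16 lists at least the 2 most abundant tested members were added. Others (such as miR-378b, miR-378c, let-7j, miR-19b-3p, miR-125a-5p, miR-125b-5p, miR-326-3p and the markers) were chosen after their values were seen. Members, lists and tests were chosen with earlier results of these data known. Alternatives were DESeq2 1.42.0, limma-voom, other scalings and filters, the 6 libraries alone, the replicate block, and leaving out each library.

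Library numbers in the titles met the rule set for pairing, that every pair's deviations from the group means correlate above 0.1. The r was 0.152, 0.636 and 0.315 for the numbers 1, 2 and 3. It was 0.360 for the untreated library 1 and the 48 h library 3. Only at number 2 was r above that of all pairs with unlike numbers, so pairing at the numbers 1 and 3 is not established. The labels state no pairing. Libraries of 1 group were not duplicates, with a chi-square per degree of freedom of 893 to 3231 between them.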

Additional observations from a re-analysis of the deposited data

Results flagged for a closer look

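Predicted miRNAs and piRNAs, which no comparison of single features used, gave 1 such result. Of 8349 predicted features listed in the 6 libraries, 7 were listed in all 3 libraries of 48 h and in none of untreated, with 10 to 48 counts each. It was flagged because these features, outside the main measurement, were listed at 48 h and not in the control libraries. The reverse, listed in all 3 untreated libraries and in none of 48 h, held for 15 features with 10 to 71 counts. In both directions some features share the same genome interval, so these are not counts of separate loci. Predicted features are listed from 10 counts, so a feature missing from a table may have had up to that many reads, and 290 were listed in all 6 libraries. The difference between the 2 groups was not tested.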

How the results depend on the processing

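The count of 0 called mature miRNAs and of 0 called seed families held under all settings tried except DESeq2 (1 and 1) and no filter on low counts (1 and 1), where miR-378d and its seed passed. Other RNA classes went from 0 to 2 without the filter, the piRNA mmu_piR_022097 and the snoRNA family RF01307. Arm ratios ran from 0 to 1 when single libraries were left out and gave 1 without both libraries numbered 2, a setting chosen after seeing the data, as were families by the deposited label. The cause was not tested. The replicate block, which fits the library number, called 0 in each of these tables and turned the direction of 2 named miRNAs, miR-199a-3p (0.19) and miR-423-5p (0.045). It changed no other call. The mature miRNA share of counted reads, a difference of 2.40 percentage points, was -1.19 without both libraries numbered 2 and -0.0317 to 4.06 with 1 library left out. For mature miRNAs listed per library the difference, 58, ran from -39.5 to 143 with 1 library left out, which also leaves its same-numbered library without a partner.

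Of the 53 named miRNAs, 27 kept 1 direction under all 19 alternatives that gave a value, among them miR-378d, miR-872-5p, miR-5114, miR-328-3p, miR-10a-5p and miR-7219-3p, and 26 changed it under at least 1. Of the former, 8 stayed within 1.5 times their value with 1 of the 6 libraries left out and 19 did not. Those 19 include, with their range, miR-154-5p -3.75 (-6.60 to -2.96), miR-27a-3p -0.39 (-0.59 to -0.27), miR-351-5p 0.95 (0.49 to 1.73), let-7f-1-3p 0.82 (0.47 to 1.49), miR-93-5p -0.43 (-0.67 to -0.16), miR-30d-5p 0.52 (0.34 to 0.71), miR-181b-5p -0.40 (-0.69 to -0.11), miR-126a-3p -0.21 (-0.46 to -0.059), miR-128-3p 0.22 (0.012 to 0.49) and miR-9-5p -0.26 (-0.47 to -0.17). All 16 list medians moved by over 1.5 times. Of the 26, the log2 fold change and its range over single left-out libraries were miR-99a-5p 0.11 (-0.10 to 0.25), miR-23a-3p 0.17 (-0.068 to 0.46), miR-24-3p 0.08 (-0.88 to 1.21), miR-146a-5p -0.11 (-0.49 to 0.20), miR-27b-3p -0.13 (-0.47 to 0.25), miR-7a-5p -0.23 (-0.81 to 0.26), miR-222-3p 0.21 (-0.022 to 0.34), miR-21a-5p 0.20 (-0.25 to 0.52), let-7d-3p 1.32 (-0.014 to 2.04), miR-23a-5p 0.49 (-0.062 to 1.18), let-7i-5p 0.16 (-0.085 to 0.29), miR-92a-3p 0.19 (-0.091 to 0.37), miR-16-5p 0.19 (-1.06 to 1.07), miR-15b-5p 0.16 (-0.48 to 1.28), miR-30b-5p 0.10 (-0.87 to 1.28), miR-29a-3p 0.47 (-0.19 to 0.99), miR-29c-3p 0.51 (-0.88 to 1.62), miR-181a-5p 0.30 (-0.0032 to 0.59), miR-34a-5p 0.07 (-0.31 to 0.29), miR-320-3p -0.25 (-0.69 to 0.34), miR-423-5p -0.03 (-0.43 to 0.62), miR-183-5p 0.07 (-0.39 to 0.34), miR-96-5p 0.02 (-0.13 to 0.21), miR-199a-3p -1.13 (-2.97 to 3.71), miR-369-3p 0.61 (-0.66 to 1.57), miR-411-5p 0.21 (-0.27 to 0.64). Under other settings, miR-24-3p was -0.017 with DESeq2-type factors and with DESeq2, -0.041 with total counts alone, -0.027 without the filter and -0.0937 at a minimum count of 50. At total counts alone miR-34a-5p was -0.00688 and miR-96-5p -0.030. At a minimum count of 50 miR-34a-5p was -0.087, miR-183-5p -0.025 and miR-96-5p -0.080. With limma-voom miR-199a-3p was 1.06 and miR-423-5p 0.066, which was 0.050 without the filter. miR-96-5p was -0.029 with the 6 libraries alone. Without both libraries numbered 2, miR-16-5p was -0.15, miR-34a-5p -0.067, miR-183-5p -0.012 and miR-96-5p -0.10. With upper-quartile factors the share of miRNAs with a higher value went from 52.5% to 57.2%. Leaving out the untreated library 2 moved the median of all miRNAs by 0.22 and leaving out the 48 h library 2 by -0.15 (log2), so directions under those settings are relative to these shifts. With 3 libraries a group the median SE was 0.82, which is not the smallest difference that could be called. For a miRNA with that SE, a difference had to be well beyond 0.82 to be told from 0, even before adjustment. After adjustment the main edgeR test did not call even miR-378d, at -6.98.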
